A study of Cricetiscus sungorus with 24 samples.

Results

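Translation initiation and elongation factors are the proteins that bring a ribosome to an mRNA, place it on the start codon and move it along. Their mRNAs were read here in the kidney of Djungarian hamsters (Siberian hamster in the sample labels). The members were the genes whose mouse symbols begin with Eif1 to Eif6, Eef1 or Eef2, together with Tpt1, Naca, Btf3 and Btf3l4. They came to 74 of the 15960 genes listed in either experiment. All 74 were among the 15842 genes of experiment 2, and 64 were among the 9681 genes of experiment 1. Each gene was represented by its transcript with the highest total.

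Experiment 1 held adult males, all first housed in a long photoperiod: 4 that remained there (LP, 16 h of light per day), 4 moved to a short photoperiod (SP, 8 h of light) for 12 weeks (SP12wk) and 4 moved for 28 weeks (SP28wk). Experiment 2 held adult females, all kept for 8 weeks in SP after LP: 6 given the vehicle of equal parts dimethyl sulfoxide and saline (SAL) and 6 given 18 µg of ovine prolactin in that vehicle (PRL), by daily injection on 3 days. RNA came from kidney tissue with its mixed cells, so that fewer cells of a type and less RNA per cell cannot be told apart. The comparisons address whether the kidney, which was studied for its seasonal change in size, held different amounts of these mRNAs after SP, after the late phase of SP and after PRL.

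Initiation begins when eIF2, loaded with GTP and the initiator tRNA, joins the small ribosomal subunit with eIF1, eIF1A, eIF3 and eIF5, and when eIF4E, eIF4G and the helicase eIF4A bring the capped mRNA to it. Kinases that phosphorylate eIF2 and repressors that hold eIF4E restrain these steps. In elongation eEF1A delivers the aminoacyl-tRNA, the eEF1B subunits recharge it with GTP, and eEF2 moves the ribosome to the next codon. Many of these mRNAs, like those of ribosomal proteins, carry a terminal oligopyrimidine tract that places their own translation under mTOR. Much of the control of these factors thus lies at the level of protein and phosphorylation, which counts of mRNA do not measure.

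The libraries were shallow in experiment 1 and deeper in experiment 2. With 1 transcript per gene a library held 15687 to 57585 counts in experiment 1 and 174053 to 756523 in experiment 2, so that 1 count stood for 17.4 to 63.7 counts scaled to a common library total of 1e+06 (CPM) and for 1.32 to 5.75 CPM, respectively. A nanopore read stands for 1 cDNA, and CPM was not divided by length. The members took 4400 counts, or 1.37% of all, in experiment 1 and 53030, or 1.18%, in experiment 2. Reads were present in all 12 libraries for 19 of 64 members in experiment 1 and for 57 of 74 in experiment 2. Of the markers of kidney cells, 6 of 8 genes of the proximal tubule and all 5 of the thick limb and distal tubule had reads in both experiments, whereas Cubn and Kap were not listed. Of 4 collecting duct genes, 2 had reads in males (Aqp2 and Scnn1a were not listed) and 4 in females. Of 3 glomerulus genes, 1 had reads in males, with 1 read in SP12wk, and Nphs1 and Podxl were not listed there. In females all 3 had reads, with 21 in SAL and 29 in PRL. Haemoglobin and Alas2 mRNAs of blood summed to 14205 to 44112 CPM in the males and to 8908 to 19490 CPM in the females.

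Elongation factor 1 alpha was the most abundant member. Eef1a1, which delivers aminoacyl-tRNA, had 992 counts in experiment 1 (22.5% of the member reads) and 9325 in experiment 2 (17.6%), and it stood at rank 28 and rank 93 of all genes by mean CPM. The muscle and neuron isoform Eef1a2 was not analysed here. Tpt1, which encodes the translationally controlled tumour protein, followed with 666 and 7594 counts. The third place was held in the females by Eif1, which guards the fidelity of start codon choice. In the males it was held by counts named Eif2ak2, the symbol of the double-stranded RNA kinase PKR. These counts cannot be told apart from those of another entry and are not read as the kinase.

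In males the Eef1a1 level was 2728, 6842, 5604 and 3535 CPM for LP, 2943, 2486, 2962 and 2515 CPM for SP12wk, and 3478, 2572, 2142 and 2362 CPM for SP28wk. LP replicates 2 and 3 stood above all others, and LP replicate 1 lay within the range of the SP libraries. The mean was 4677 ± 1884 CPM for LP (SD, n = 4 each), against 2726 ± 261 CPM for SP12wk and 2639 ± 587 CPM for SP28wk. In SP12wk against LP the log2 fold change was −0.52 (95% interval −1.42 to 0.38, adjusted P = 0.806, edgeR quasi-likelihood test with Benjamini-Hochberg adjustment over all genes), and in SP28wk against LP it was −0.42 (−1.31 to 0.47, adjusted P = 0.907). Without LP replicates 2 and 3 the LP mean was 3131 CPM, and these differences became −0.21 and −0.15.

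The same LP libraries were high for Tpt1. Its level was 1599, 3590, 3052 and 1864 CPM in the LP libraries, 1512, 2167, 2108 and 1639 CPM in those of SP12wk, and 2371, 1660, 2228 and 2014 CPM in those of SP28wk. The groups overlapped. The mean was 2526 ± 949 CPM in LP and 1732 CPM there with both libraries left out. Summed over all members the level was 26360 CPM in LP replicate 2 and 21363 CPM in LP replicate 3, against 11289 to 14110 CPM in the other 10 male libraries. These libraries also had the largest TMM scaling factors of the experiment (1.41 and 1.25), and the summed level of 84 ribosomal protein genes was lowest in them (73753 and 118581 CPM, against 138605 to 182676 CPM elsewhere). Their part in the LP levels was not tested beyond leaving them out.

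**Figure D1:**
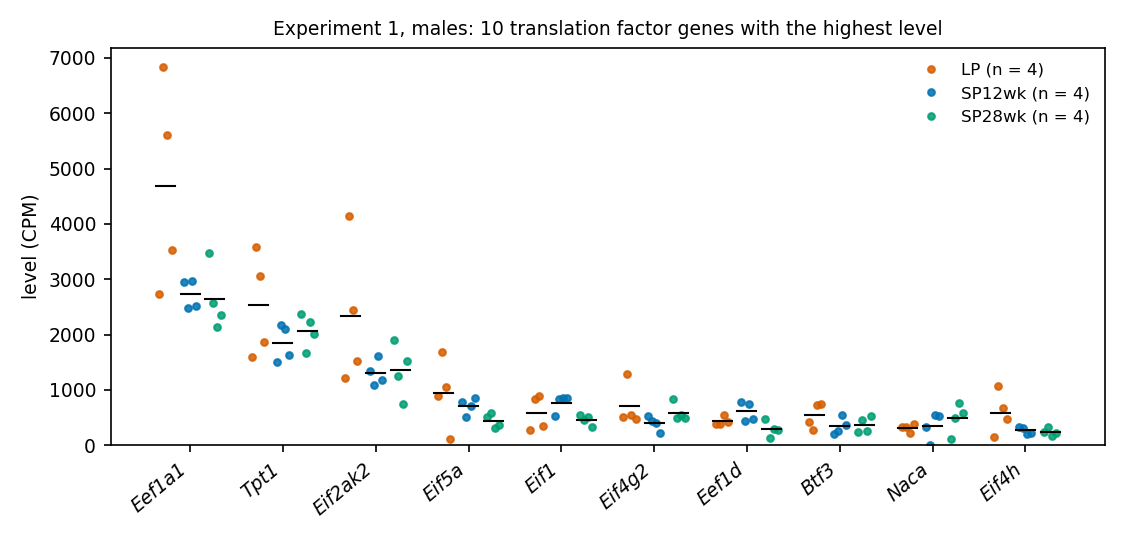
Level in CPM (linear axis from 0) of the 10 members with the highest mean in males, with 1 point for each library and a bar at the mean of each group (LP, SP12wk and SP28wk, n = 4 each). The highest LP points of Eef1a1, Tpt1 and Eif2ak2 belong to LP replicates 2 and 3, and the groups overlap.

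In none of the comparisons did a member pass the threshold of an adjusted P of 0.05. Of the 64 members listed in males, 47 had a count in at least 4 of 12 libraries and were tested among 5086 genes, and 0 of 47 passed in edgeR, in DESeq2 or in limma-voom. Among all genes 0.0197% passed in SP12wk against LP, 0.216% in SP28wk against LP, and 0.138% between SP28wk and SP12wk. Thus few genes of any kind were called at this depth. The 3 male comparisons share their groups and are given side by side.

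The precision of the male data was low. The median standard error of a member's log2 fold change was 0.85 for SP12wk and 0.80 for SP28wk, both compared with LP, and 0.82 between SP28wk and SP12wk. The 95% interval lay within a change of 2-fold in both directions for 1 of the 47 members in SP12wk against LP, for 0 in SP28wk against LP and for 2 between SP28wk and SP12wk. A lack of calls therefore does not show that the levels were alike.

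The 95% intervals of the members' log2 fold changes are plotted for every comparison. In SP12wk against LP the median over the 47 members was −0.17, with 18 higher and 29 lower, against 0.0023 over all genes. It was −0.069 without LP replicate 3, −0.35 without LP replicate 1, −0.028 without LP replicates 2 and 3, and −0.41 with library totals. The difference between SP28wk and SP12wk had a median of 0.10 over the members (26 higher, 21 lower) and 0.16 over all genes, and the members' median turned to −0.055 with RLE factors and to −0.070 with library totals. For SP28wk against LP the values were −0.12 (22 higher, 25 lower) and 0.18. The scaling sets part of these positions, since the median of all genes in SP28wk against LP was 0.18 with TMM factors, −0.029 with RLE factors and −0.16 with library totals. The members' median was below that of all genes with each scaling, at −0.12, −0.32 and −0.48. Without LP replicates 2 and 3 it was 0.089 beside 0.15 over all genes.

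**Figure D2:**
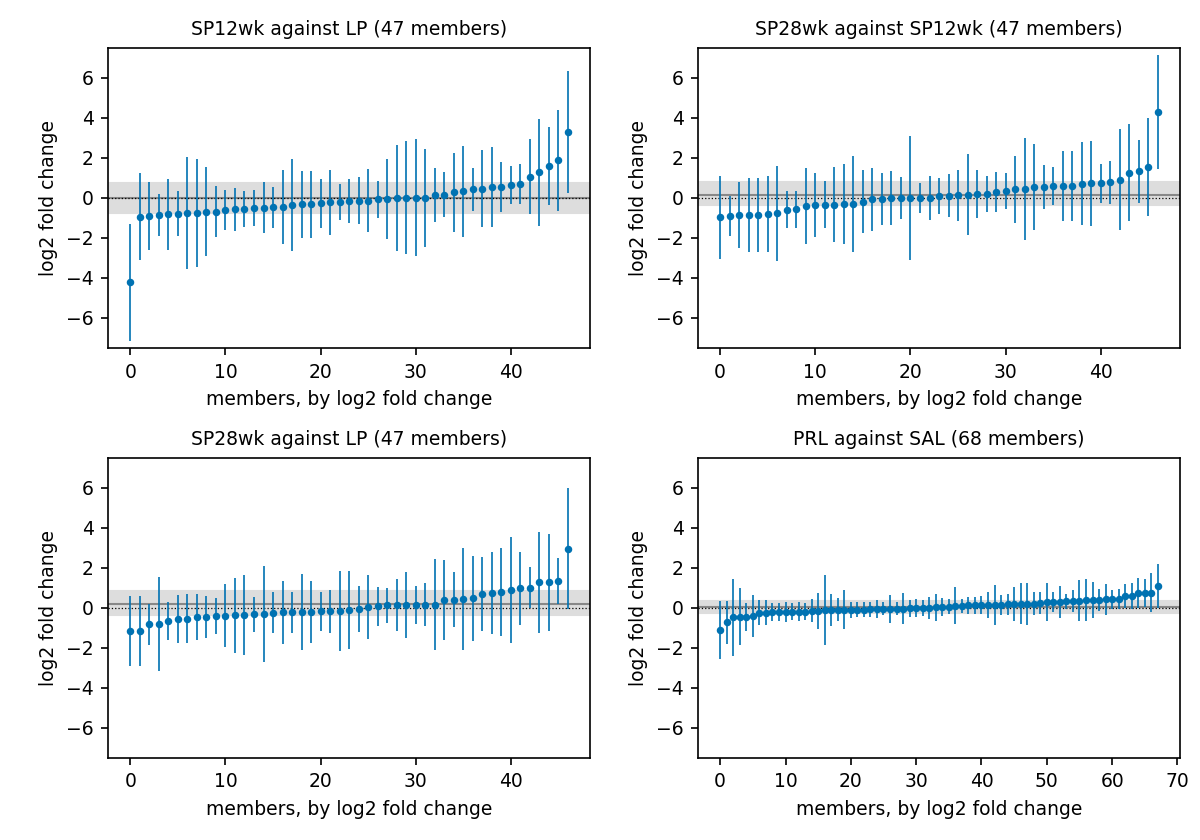
Log2 fold change (vertical axis) of each tested member with its 95% interval from edgeR, ordered by size, in the 4 comparisons. The grey band and line are the quartiles and the median of all genes tested. The median half-width of the intervals was 0.58 for the 68 members in PRL against SAL. For the 47 members in the male comparisons it was 1.57 to 1.68.

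Start codon and scanning factors were best covered for Eif1. Its level was 282, 841, 888 and 350 CPM for LP, 531, 829, 853 and 848 CPM for SP12wk, and 553, 456, 514 and 330 CPM for SP28wk. The SP28wk libraries lay below all but 1 of the SP12wk libraries, and LP covered the range of both. SP28wk against SP12wk gave a log2 fold change of −0.58 (95% interval −1.52 to 0.35, adjusted P = 0.980, edgeR). Its paralogue Eif1b had no read in LP, 0, 0, 1 and 3 reads in SP12wk, and 0, 2, 1 and 1 in SP28wk. With the 4 reads of SP12wk taken as exact, against the 3 that a group without reads could have held, Eif1b had a ratio of 1.16. The unadjusted P of SP12wk against LP was 0.0342 and the adjusted P was 0.615 in edgeR. The counting error of those 4 reads is not in this ratio, so it is not a lower bound. SP12wk replicate 4 held 3 of these reads, and without it the ratio was not above 1 and the unadjusted P was 0.207 in edgeR. For SP28wk against LP the ratio was not above 1 either. Eif1b was tested only through its reads in the SP groups, and Btf3l4, a member of the nascent chain group, through those in LP and SP28wk, so that a difference from the group without reads was favoured in advance. Eif5, the GTPase activator of eIF2, and Eif1ax, which promotes scanning, had 14 and 8 reads over the 12 males.

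The subunits of eIF2 and its exchange factor eIF2B were scarce. In males Eif2s1 and Eif2s2, which encode the alpha and beta subunits, had 17 and 24 reads, and Eif2s3x, which encodes the gamma subunit, had 2 reads, both in LP replicate 2. This group, which took in Eif2a and Eif2d beside the subunits, had 8 members listed in males. Of these 3 were tested, and their log2 fold changes lay between −0.83 and 0.60 in the 3 comparisons. In females 10 of 11 members of the group were tested. Eif2s1 was at 52.2 ± 17.5 CPM in SAL and 68.9 ± 22.6 CPM in PRL, Eif2s2 at 96.8 ± 22.0 and 101 ± 19.4 CPM, and Eif2s3x at 52.6 ± 24.7 and 66.4 ± 30.1 CPM (SD, n = 6 each). The Y-linked gamma paralogue of the mouse, Eif2s3y, was listed with 1 read, in a SAL female, and not in the males.

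Of the eIF2 kinases, Eif2ak1, Eif2ak3 and Eif2ak4 could be described with the female data alone. The counts named Eif2ak2 are shared with another entry and are given below. Eif2ak1, the haem-regulated kinase, had 33 reads, Eif2ak3, the kinase of the unfolded protein response known as PERK, had 39, and Eif2ak4, the amino acid sensor GCN2, had 44. Eif2ak4 had 1 to 6 reads in each SAL library and 0 to 12 in each PRL library, with medians of 8.49 and 11.1 CPM, and the groups overlapped. In males Eif2ak3 had 4 reads and Eif2ak4 had 1, and neither was tested.

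The counts named Eif2ak2 were of another kind. They came from 1 transcript, XM_006523863.5, with 499 reads in males and 2263 in females. The non-coding entry Gm6548 (NR_003363.2) carried the same count in 12 of 12 male and 9 of 12 female libraries, 499 and 2257 in all, whereas the curated Eif2ak2 transcript NM_011163.4 had 6 reads in females and was not listed in males. Reads of the 2 symbols thus cannot be told apart, and the level below is that of the shared count. It was 1223, 4150, 2442 and 1515 CPM in the LP libraries, 1349, 1084, 1606 and 1187 CPM in those of SP12wk, and 1897, 1245, 743 and 1528 CPM in those of SP28wk.

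Across the 12 male libraries the shared count followed Eef1a1. The count was 34.7% to 64.7% of the Eef1a1 count, and the log2 levels correlated with Pearson r = 0.927 (permutation P = 2e-05, adjusted P = 0.00012) and Spearman rho = 0.811 (permutation P = 0.00229, adjusted P = 0.0137) among 6 relations computed. With the 2 libraries of most extreme Eef1a1 level left out, r was 0.772. Across the 12 females the count was 14.9% to 41.9% of that of Eef1a1, with r = 0.533 (permutation P = 0.075, adjusted P = 0.113), rho = 0.280 (permutation P = 0.374, adjusted P = 0.708) and r = 0.229 without 2 libraries. The levels of a library share its total count. The males fall into groups of light treatment, which the permutations did not keep apart. Whether the shared count also took reads of Eef1a1 was not tested, so the correlation is not shown to be one between 2 genes.

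**Figure D3:**
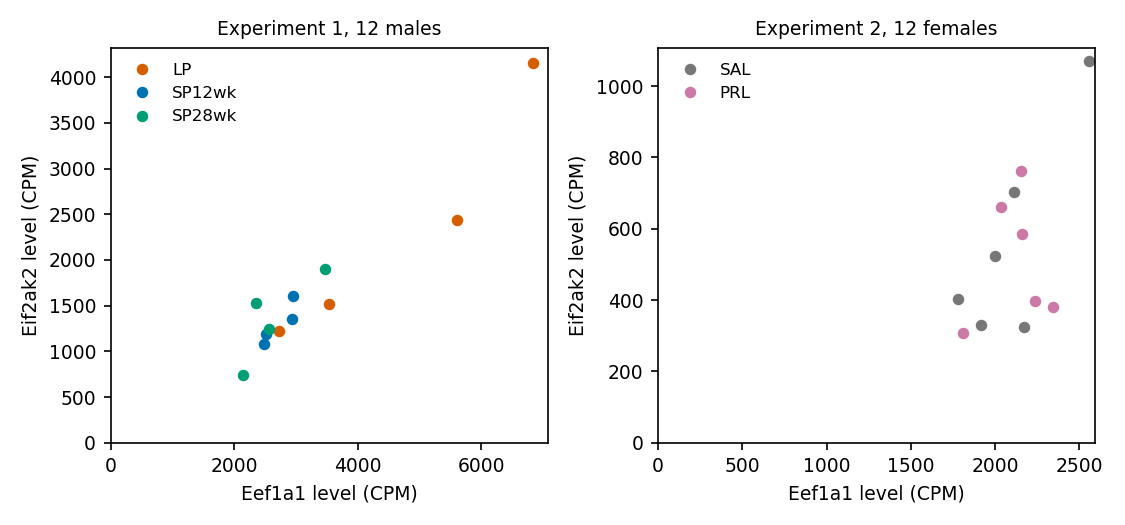
Level of the count named Eif2ak2 against that of Eef1a1 in each library (CPM, linear axes from 0), for 12 males (left; LP, SP12wk and SP28wk) and 12 females (right; SAL and PRL). The 2 LP libraries at the upper right are replicates 2 and 3, and the female levels of Eif2ak2 spread from 308 to 1069 CPM while those of Eef1a1 lay between 1779 and 2555 CPM.

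Among subunits of eIF3, the scaffold that binds the small ribosomal subunit, all 14 were tested in males and in females. In males the highest were Eif3l, Eif3k, Eif3a and Eif3m, with 66, 61, 53 and 52 reads. Eif3h was apart in SP12wk when read in CPM. It had 1, 0, 1 and 1 reads in LP, 3, 1, 2 and 4 in SP12wk, and 1, 1, 2 and 3 in SP28wk. The level was 63.7 to 123 CPM in SP12wk, 0 to 55.5 CPM in LP and 39.5 to 57.1 CPM in SP28wk, and the 4 SP12wk libraries lay above the other 8. CPM does not use the TMM factors. The lowest SP12wk value was 1 read in replicate 2, with a factor of 1.14. SP28wk replicates 3 and 4 had factors of 0.890 and 0.770, and SP12wk and SP28wk overlap once CPM is divided by the factors.

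The Eif3h level of 99.9 ± 25.8 CPM in SP12wk was 2.83 times that in LP (35.3 ± 24.5 CPM, SD, n = 4 each). The two-sided exact permutation P of the mean CPM, without TMM factors, was 0.0286 against either group, before any adjustment. It is the smallest that 4 against 4 libraries can give, and the value that such groups without overlap always give. In edgeR the log2 fold change was 1.58 (95% interval −0.36 to 3.52, adjusted P = 0.670) in SP12wk against LP and −0.86 (−2.51 to 0.80, adjusted P = 0.980) in SP28wk against SP12wk. In CPM the groups did not overlap for 1 of 47 members in SP12wk against LP, beside 2.67% of all genes. The same held for 2 of 47 (Eif3h and Btf3l4) in SP28wk against SP12wk, beside 3.38%. No member's groups were apart in SP28wk against LP, beside 3.3% of all genes. In females, with 472 reads, Eif3h was at 102 ± 21.0 CPM in SAL and 102 ± 27.8 CPM in PRL (log2 fold change −0.02, 95% interval −0.49 to 0.45). Eif3j1 and Eif3j2 carried identical counts in both experiments, and 21 and 136 reads stood for the pair. Both symbols are counted in the numbers of members and in the summed counts of the members. Eif3f, another eIF3 subunit, was at 94.1, 168, 166 and 77.7 CPM among the LP libraries, at 40.9, 63.7, 100 and 28.3 CPM among SP12wk, and at 158, 166, 171 and 52.1 CPM among SP28wk, so that 3 of 4 SP28wk libraries lay above SP12wk. Eif3d had 9 reads in the 12 males.

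Cap binding factors and the eIF4A helicases lay lower in SP12wk than in LP for 8 of 11 tested members (median −0.59). They lay higher in SP28wk than in SP12wk for 8 of 11 (median 0.44), with none called in either comparison. Of all 5086 genes, 2402 were lower in SP12wk than in LP (median 0.0023) and 2963 higher in SP28wk than in SP12wk (median 0.16). Both comparisons contain SP12wk. The summed level of the group was 1693, 4487, 2830 and 2447 CPM for LP and 2044, 2167, 1606 and 1159 CPM for SP12wk. For SP28wk it was 2490, 1743, 1543 and 1789 CPM, which overlapped SP12wk. LP replicate 2 lay far above the rest and LP replicate 1 within the SP12wk range. The median in SP12wk against LP was −0.51 without LP replicates 2 and 3 (8 of 10 lower), −0.36 without LP replicate 1 and −0.31 without LP replicate 4. In SP28wk against SP12wk it was 0.097 with DESeq2, 0.052 with the stricter filter, and 0.086 (without SP28wk replicate 4) to 0.51 with each library left out. In that comparison 6 of 11 were higher with RLE factors, library totals or DESeq2, and 9 of 11 with limma-voom. Eif4h, a cofactor of eIF4A, was at 141, 1066, 666 and 466 CPM for LP, 327, 319, 201 and 226 CPM for SP12wk, and 237, 332, 171 and 226 CPM for SP28wk. The lowest Eif4h value of all was in LP replicate 1, and the 3 other LP libraries stood above all others. Its log2 fold change was −0.84 in SP12wk (95% interval −1.89 to 0.21, adjusted P = 0.670, edgeR) and −0.83 in SP28wk (−1.85 to 0.19, adjusted P = 0.724), both against LP. Without LP replicates 2 and 3 these values were −0.24 and −0.28.

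The helicase paralogues were of like level. Eif4a1 had 87 reads and Eif4a2 had 91 in males, and 1061 and 1028 in females, while Eif4a3, the helicase of the exon junction complex, had 6 and 101. Eif4a2 was at 282, 617, 444 and 350 CPM in the LP libraries, 0, 510, 201 and 198 CPM in those of SP12wk, and 356, 166, 257 and 278 CPM in those of SP28wk, with SP12wk covering nearly the whole range. Eif4a1 was at 94.1, 617, 333 and 233 CPM for LP, at 409, 510, 151 and 170 CPM for SP12wk, and at 435, 249, 229 and 174 CPM for SP28wk, with LP as the widest group for this paralogue. Eif4g2, a scaffold that lacks the eIF4E binding part of eIF4G, averaged 401 ± 129 CPM at SP12wk and 589 ± 162 CPM at SP28wk (SD, n = 4 each), a log2 fold change of 0.73 (95% interval −0.25 to 1.70, adjusted P = 0.979, edgeR). The cap-binding protein Eif4e lay between 28.3 and 286 CPM in the 12 males, with group means of 160 (LP), 157 (SP12wk) and 131 CPM (SP28wk). Its repressor Eif4ebp1 had 1 read in males, in SP12wk, and Eif4ebp2 had none there and 2 in females.

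Eif5a, the hypusine-bearing factor that eases elongation through stalling sequences, was at 894, 1683, 1054 and 117 CPM for LP, 777, 510, 703 and 848 CPM for SP12wk, and 514, 581, 314 and 365 CPM for SP28wk. LP held both the highest and the lowest of the 12 values. The log2 fold change in SP28wk was −0.65 against LP (95% interval −1.59 to 0.30, adjusted P = 0.805, edgeR) and −0.58 against SP12wk (−1.52 to 0.37, adjusted P = 0.980). Its paralogue Eif5a2 had 1 read in males and 7 in females.

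Of the subunits of eEF1B, which recharge eEF1A with GTP, Eef1b2 was the member with the smallest P in SP28wk against LP. It had 2, 4, 2 and 6 reads in LP, 4, 2, 5 and 10 in SP12wk, and 8, 13, 13 and 11 in SP28wk. The levels were 94.1, 224, 111 and 233 CPM in the LP libraries, 163, 127, 251 and 283 CPM in those of SP12wk, and 316, 539, 371 and 191 CPM in those of SP28wk. In 3 of 4 SP28wk libraries the level was above all LP and SP12wk libraries, and in SP28wk replicate 4 it was within the range of LP. The mean of 354 ± 145 CPM in SP28wk was 2.14 times the 166 ± 73.3 CPM of LP (log2 fold change 1.34, 95% interval 0.20 to 2.47, unadjusted P = 0.0207, adjusted P = 0.529, edgeR). Without LP replicates 2 and 3 the log2 fold change was 1.10. In that fit no member had an unadjusted P under 0.05 in SP28wk against LP in edgeR. The same held with summed transcripts, without LP replicate 3, and without SP28wk replicate 2 or 3.

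Another subunit of the same complex, Eef1d, lay the other way. Its level was 376, 393, 555 and 427 CPM for LP, 777, 446, 753 and 480 CPM for SP12wk, and 474, 124, 286 and 278 CPM for SP28wk. SP28wk replicate 1 overlapped SP12wk, and the other 3 were below it. SP28wk against SP12wk gave −0.91 (95% interval −1.89 to 0.07, unadjusted P = 0.0695, adjusted P = 0.902, edgeR). Eef2, which moves the ribosome along, had only 26 reads in the 12 males, at no more than 222 CPM in any library, and its kinase Eef2k had 1 read.

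Naca and Btf3 form the nascent polypeptide associated complex, which shields new chains at the ribosome, and Btf3l4 is a paralogue of Btf3. Naca was at 329, 337, 222 and 388 CPM in the LP libraries, 327, 0, 552 and 537 CPM in those of SP12wk, and 119, 498, 771 and 590 CPM in those of SP28wk. In SP28wk 3 of 4 libraries lay above LP and replicate 1 below it. The log2 fold change of SP28wk against LP was 1.01 (95% interval 0.0006 to 2.01, unadjusted P = 0.0499, adjusted P = 0.577, edgeR), and the two-sided exact permutation P of the mean CPM was 0.286. Without LP replicates 2 and 3 the log2 fold change was 0.64. In that fit, and in the others listed for Eef1b2, the unadjusted P of Naca in edgeR was not under 0.05. Btf3 was at 541 ± 226, 345 ± 154 and 368 ± 142 CPM in LP, SP12wk and SP28wk, with overlap of all groups.

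Btf3l4 was the member with the smallest P in males. It had 3, 1, 0 and 4 reads in LP, none in the 4 SP12wk libraries, and 2, 2, 2 and 5 reads in SP28wk. In CPM it was 141, 56.1, 0 and 155 in LP and 79.0, 83.0, 57.1 and 86.8 in SP28wk. Ratios were formed with 3 counts over the group as the limit of a count of 0 and the reads of the other group taken as exact. For Btf3l4 the ratio was 3.07 for LP over SP12wk and 2.47 for SP28wk over SP12wk. The limit covers the counting error of the count of 0 only, so these ratios are not lower bounds. The unadjusted P was 0.0049 and 0.00335, and the adjusted P was 0.575 and 0.614 in edgeR. LP replicate 3 also lacked the gene, and the two-sided exact permutation P against LP was 0.143. In females Btf3l4 had 629 reads, at 138 CPM over the 12 libraries, with a log2 fold change of 0.14 in PRL against SAL (95% interval −0.29 to 0.58).

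**Figure D4:**
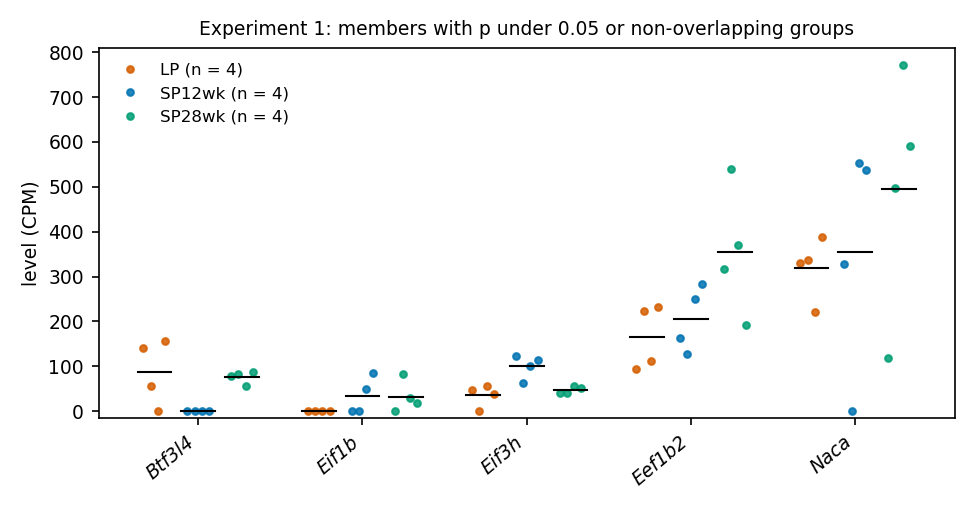
Level in CPM (linear axis) of the 5 members with an unadjusted P under 0.05 or with groups that did not overlap in a male comparison, with 1 point for each library and a bar at the group mean (n = 4 each). Btf3l4 is at 0 in all SP12wk libraries and Eif1b at 0 in all LP libraries, each on fewer than 20 reads, and 3 of 4 SP28wk points of Eef1b2 and of Naca lie above LP.

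The number of members with an unadjusted P under 0.05 was near or below the share over all genes. It was 2 of 47 (Btf3l4 and Eif1b) in SP12wk against LP, where 7.27% of all genes had such a P, 1 of 47 (Btf3l4) in SP28wk against SP12wk, beside 6.1%, and 2 of 47 (Eef1b2 and Naca) in SP28wk against LP, beside 8.61%. The 13 members with a terminal oligopyrimidine tract had a median log2 fold change of −0.21, 0.11 and −0.18 in these comparisons, and the 34 other members −0.10, −0.00025 and −0.015. Ribosomal protein genes summed to 132477 ± 47132 CPM (LP), 153548 ± 13107 CPM (SP12wk) and 161467 ± 14860 CPM (SP28wk; SD, n = 4 each). The levels of Eef1a1 and of the ribosomal sum ran opposite over the 12 males (r = −0.839, permutation P = 0.00212, adjusted P = 0.00636), yet rho was −0.531 (permutation P = 0.0804, adjusted P = 0.241) and r was −0.194 without 2 libraries, so that the relation rested on those libraries. For Tpt1 r was −0.697 (permutation P = 0.015, adjusted P = 0.030), rho was −0.231 (permutation P = 0.472, adjusted P = 0.708), and r turned to 0.300 without 2 libraries.

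In females the levels were steadier. Eef1a1 had a lowest value of 1779, a median of 2057 and a highest value of 2555 CPM in SAL, and 1811, 2157 and 2341 CPM in PRL. The range of PRL lay within that of SAL. The mean was 2089 ± 268 CPM in SAL and 2122 ± 183 CPM in PRL (SD, n = 6 each), a log2 fold change of −0.05 (95% interval −0.39 to 0.29, adjusted P = 0.998, edgeR). For Tpt1 the values were 1444, 1703 and 1804 CPM in SAL and 1554, 1677 and 1919 CPM in PRL (log2 fold change −0.04, 95% interval −0.38 to 0.29). Both signs turned with library totals in place of TMM factors, at 0.02 and 0.03, so that neither direction is given. Summed over all members the level was 11498 ± 434 CPM in SAL and 12169 ± 501 CPM in PRL.

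Among the 10 members with the highest mean in females, Eif1 had the largest log2 difference between PRL and SAL. Its lowest, median and highest levels were 930, 1027 and 1292 CPM in SAL and 1111, 1453 and 1554 CPM in PRL. In 4 of 6 PRL libraries Eif1 was above every SAL library. The log2 fold change was 0.32 (95% interval −0.04 to 0.68, unadjusted P = 0.0812, adjusted P = 0.998, edgeR), and the two-sided exact permutation P of the mean CPM, without TMM factors, was 0.0130 before adjustment. Naca was at 814 ± 122 and 877 ± 88.3 CPM, Eef1b2 at 560 ± 39.5 and 546 ± 83.9 CPM, Btf3 at 441 ± 73.1 and 441 ± 53.1 CPM, and Eef1g, another eEF1B subunit, at 407 ± 44.2 and 400 ± 32.4 CPM in SAL and PRL. Eif5a was at 450 ± 29.9 and 503 ± 46.2 CPM, with a log2 fold change of 0.09 (95% interval −0.27 to 0.46). The helicase Eif4a1 ranged from 194 to 333 CPM in SAL and from 206 to 265 CPM in PRL. All of these overlapped between the groups.

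**Figure D5:**
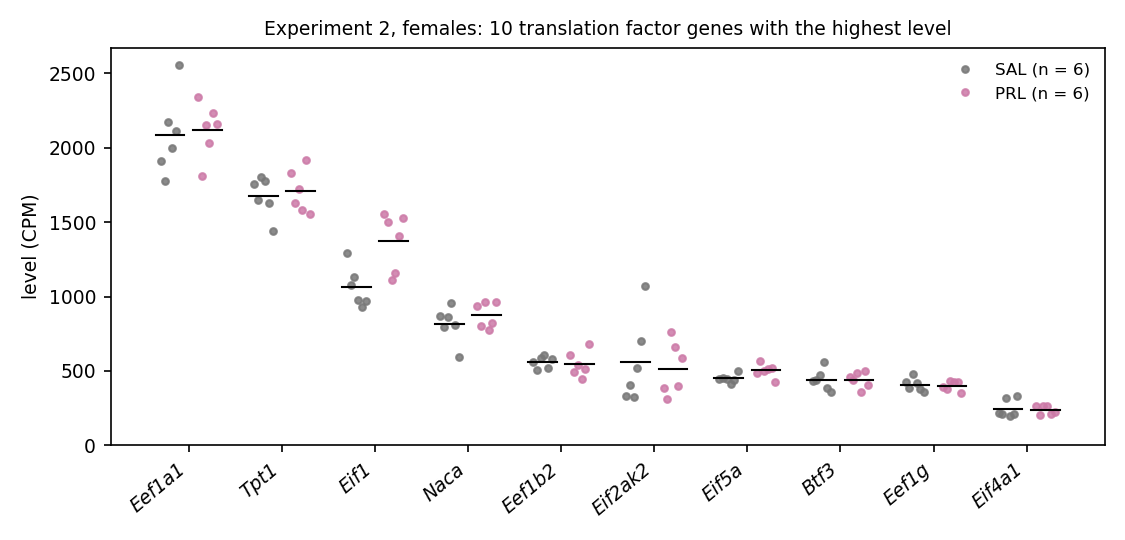
Level in CPM (linear axis from 0) of the 10 members with the highest mean in females, with 1 point for each library and a bar at the mean of SAL and of PRL (n = 6 each). The SAL and PRL points of Eef1a1 and Tpt1 overlap over most of their range, and 4 of 6 PRL points of Eif1 lie above those of SAL.

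Of the 74 members in females, 68 had a count in at least 6 of 12 libraries and were tested among 10696 genes, of which 0% passed an adjusted P of 0.05 in edgeR. None of the 68 passed in edgeR, DESeq2 or limma-voom. An unadjusted P under 0.05 was found for 1 of 68 (Eif4a3), beside 4.88% of all genes, and no member had groups that did not overlap, beside 0.14% of all genes. The median log2 fold change was 0.019 over the members (35 higher, 33 lower) and 0.028 over all genes. The 95% interval lay within a change of 2-fold in both directions for 42 of the 68 members, and the median standard error was 0.29.

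The members with the smallest P in edgeR after PRL were of low level. Eif4a3 was at 7.80, 15.2 and 27.4 CPM (lowest, median and highest) in SAL and at 14.2, 24.4 and 46.0 CPM in PRL, with a log2 fold change of 0.73 (95% interval 0.02 to 1.44, unadjusted P = 0.0446, adjusted P = 0.998, edgeR). Eif4ebp1, which holds eIF4E until mTOR phosphorylates it, had 1 or 2 reads in each SAL library and 1 to 9 in each PRL library, at 4.65 ± 2.58 and 8.88 ± 2.07 CPM. Its log2 fold change was 1.08 (95% interval −0.01 to 2.16, adjusted P = 0.998, edgeR), and the two-sided exact permutation P was 0.0173 before adjustment. By this permutation test the P was smaller for Eif5b, at 0.00866 (18.2 CPM in SAL and 29.8 CPM in PRL). It was also smaller for Eif4b, at 0.0108 (65.2 CPM in SAL and 92.7 CPM in PRL). In edgeR the adjusted P of both was 0.998. Eef1e1, an auxiliary part of the multisynthetase complex, was at 44.5 ± 19.0 CPM in SAL and 71.5 ± 30.6 CPM in PRL (log2 fold change 0.57, 95% interval −0.03 to 1.17).

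Among the members that lay lower after PRL, Eif1ad had 1 to 3 reads in each SAL library and 4, 2, 0, 0, 0 and 0 reads in the PRL libraries, the 2 with reads being the deepest of the experiment. Its log2 fold change was −1.13 (95% interval −2.57 to 0.31, adjusted P = 0.998, edgeR). Eif2b3, a subunit of the exchange factor, was at 11.3 ± 5.48 and 8.22 ± 7.99 CPM, and the scaffold Eif4g1 at 27.3 ± 12.4 and 22.3 ± 8.73 CPM. The eIF3 subunits lay between −0.24 and 0.32 on the log2 scale, with 4 higher and 10 lower of 14. Eif3j1 and Eif3j2, whose counts are identical, are both among the lower. The 3 tested members among eIF5A, eIF5B and eIF6 all had values above 0, with a median of 0.46.

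The 2 experiments differed in sex, time in SP, injection, flow cell and depth, which cannot be told apart, and their levels are given side by side without a test. Eef1a1 averaged 3348 CPM over the males and 2106 CPM over the females, the count named Eif2ak2 1664 and 537 CPM, and Eif4h 365 and 96.0 CPM. Other members were higher in the females, with Eif1 at 606 and 1220 CPM, Naca at 389 and 845 CPM, Eef1b2 at 242 and 553 CPM, and Btf3l4 at 54.9 and 138 CPM in males and females. For Eif4h, Eif4g2 and Eif5a, among others, the transcript with the highest total was another one in females than in males.

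Of 49 other translation genes, which cover termination, poly(A) binding, further helicases, the eIF2 stress response, mTOR input and mitochondrial factors, 23 were tested in males and 41 in females. None was called by edgeR in any comparison. An unadjusted P under 0.05 in edgeR was found for 2 of 23 (Mcts1 and Impact) in SP12wk against LP, beside 7.27% of all genes. In SP28wk against SP12wk it was 1 of 23 (Dhx29), beside 6.1%, and in SP28wk against LP 1 of 23 (Impact), beside 8.61%. In PRL against SAL it was 1 of 41 (Tsfm), beside 4.88%. Mcts1, which acts in re-initiation, had 7 reads and Impact, an inhibitor of the GCN2 pathway, had 9 in males, with none in LP for either. Dhx29 had 6 reads in males, with none in SP12wk. Mcts1, Impact and Dhx29 were tested only through their reads in the other groups. A difference from the group without reads was thus favoured in advance. Rack1, a scaffold on the small ribosomal subunit, was the most abundant of this list, at 598, 571 and 468 CPM in LP, SP12wk and SP28wk and at 766 and 798 CPM in SAL and PRL. Atf4, the transcription factor translated when eIF2 is phosphorylated, had 7 reads in males and was at 77.5 and 79.9 CPM in SAL and PRL (log2 fold change 0.05, SE 0.25). Ppp1r15a, which counters that phosphorylation, had 5 reads in females and was not tested.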

How the data were processed

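The authors basecalled nanopore direct cDNA reads of hamster kidney with Guppy, trimmed and filtered them with Porechop and Filtlong, and aligned them to the mouse genome with Minimap2. The deposited values are estimated counts per mouse RefSeq transcript without normalization, and Salmon is named by the labels with no role. The kit name in the labels is that of PCR cDNA, with catalogue numbers of direct cDNA. Reads of hamster genes that differ from the mouse may be missed or shared between related genes. All 24 value columns were used.

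Each gene was represented by its transcript with the highest total in the experiment. CPM was the count divided by the library's sum of these transcripts. The counts were rounded, and edgeR 4.0.16 (quasi-likelihood test, R 4.3.3) was run with TMM factors, 1 model per experiment, no covariate and Benjamini-Hochberg adjustment over all genes that had reads in 4 or more of 12 libraries (males) or 6 or more of 12 (females). The threshold was an adjusted P of 0.05. The scripts were tested on simulated data. P-values of single genes also came from exact permutation of the libraries (two-sided, on mean CPM), and those of correlations from 100000 permutations. Alternatives were summed transcripts, other filters, RLE factors, library totals, DESeq2 1.42.0, limma-voom (limma 3.58.1), a replicate block and each library left out. Leaving out LP replicates 2 and 3 together was chosen after seeing the data.

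The 18 pairs of libraries within a group in males and the 30 in females had chi-square values of at least 1.89 and 2.13 times their degrees of freedom, so none was a copy. The labels number the samples but do not state separate animals, and P then measures the spread between these samples. The members and lists were chosen with earlier results of these data known. Values were given for the 10 members with the highest mean, for the 3 in each direction with the smallest P in each comparison, and for fixed paralogues and regulators. The members Eif3a, Eif3k, Eif3l, Eif3m, Eif2s1, Eif2s2, Eif5, Eif1ax, Eef2, and Eif3h and Btf3l4 in females, fall outside that rule and were named as examples of their group. Eif4b and Eif5b in females also fall outside it and were named for their permutation P. Counting limits cover counting error only. The limit of 3 counts for a count of 0 covers the error of that 0, with the reads of the other group taken as exact.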

Additional observations from a re-analysis of the deposited data

Results flagged for a closer look

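Libraries were tested in 84 groups, which did not take in all groups of the named members. In 6 of these the gap of the highest or lowest library to the next exceeded the critical value of Dixon's test at 95%. Chance flags about 5% of groups. In males Eif1 was at 531 CPM (13 reads) in SP12wk replicate 1, below the 829 to 853 CPM of the other SP12wk libraries. Eif3d was at 47.0 CPM in LP replicate 1, which is 1 read, with none in the other LP libraries. A group with reads in 1 library only always exceeds the critical value, so the 5% does not apply to it. Eif3f was at 52.1 CPM (3 reads) in SP28wk replicate 4, against 158 to 171 CPM in the others. Eif4g2 was at 1290 CPM (23 reads) in LP replicate 2, against 466 to 555 CPM, and at 830 CPM (21 reads) in SP28wk replicate 1, against 486 to 543 CPM. In females Eif4g1 was at 39.5 CPM (10 reads) in PRL replicate 3, against 17.0 to 23.0 CPM.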

How the results depend on the processing

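No member was called under any of the alternatives. Of 685 values of 32 named results, 667 kept their direction and 18 turned; the cause was not tested. The number of genes called over the whole table did depend on the processing. For SP12wk against LP it was 1, and 0 with summed transcripts, no filter, the stricter filter, library totals, DESeq2, limma-voom or the replicate block, 2 without LP replicates 2 and 3, and 0 to 8 with each library left out (8 without LP replicate 4). For SP28wk against SP12wk it was 7, and 0 with summed transcripts, 2 with the stricter filter, 2 with DESeq2, 18 without LP replicates 2 and 3, and 2 (without SP12wk replicate 4) to 11 (without LP replicate 2) with each library left out. For SP28wk against LP it was 11, and 0 with summed transcripts, 5 with the stricter filter, 2 with DESeq2, 30 with limma-voom, 2 without LP replicates 2 and 3, and 8 (without LP replicate 3) to 54 (without LP replicate 4) with each library left out. For PRL against SAL it was 0, and 1 with summed transcripts, 92 with no filter, 94 with the replicate block, and 0 to 44 with each library left out (27 without SAL replicate 6, 26 without PRL replicate 3 and 44 without PRL replicate 4). The deviations of same-numbered libraries correlated at −0.151 to 0.211 in males and at −0.525 to 0.573 in females. Differently numbered libraries were not compared in this way, so these values do not settle whether the replicate numbers pair the libraries. With library totals the members' median log2 fold change in SP28wk against LP moved from −0.12 to −0.4789, and 7 of 68 members had an unadjusted P under 0.05 in PRL against SAL, beside 5.18% of all genes, against 1 of 68 beside 4.88% with TMM factors.

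The log2 fold changes that turned were near 0. Eef1a1 in SP28wk against SP12wk was 0.10, and −0.0441 with RLE factors, −0.0513 with library totals, −0.0479 with DESeq2, −0.0472 on mean CPM, and −0.048 (without SP28wk replicate 1) to 0.1216 with each library left out. Tpt1 in SP28wk against LP was 0.13, and −0.1142 with summed transcripts, −0.0989 with RLE factors, −0.2802 with library totals, −0.0969 with DESeq2, −0.2885 on mean CPM, and −0.0402 (without LP replicate 1) to 0.2014 with each library left out. Tpt1 in SP12wk against LP was −0.21, and 0.0714 without LP replicates 2 and 3. In PRL against SAL Eef1a1 was 0.0226 with library totals, 0.0225 on mean CPM, and −0.1123 to 0.0195 (without SAL replicate 6) with each library left out, and Tpt1 was 0.0255 with library totals and 0.0259 on mean CPM. In males 1 read was worth at least 17.4 CPM, so that small differences of scarce members were not detectable at this depth.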
